A study of Homo sapiens with 6 samples.

Results

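Glycolysis and the transport of glucose and lactate were examined in parent MDA-MB-231 cells and in the adriamycin-resistant line derived from them through 37 named genes out of the 58735 in the count table. The genes were chosen by name. They encode glucose transporters, the enzymes from hexokinase to lactate dehydrogenase, lactate transporters, and the proteins that admit pyruvate to mitochondria and control the pyruvate dehydrogenase (PDH) complex. All 37 were found in the table and all 37 passed the filter on low counts.

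Glycolysis splits glucose into pyruvate in the cytosol and yields ATP and NADH. Pyruvate is then reduced to lactate by lactate dehydrogenase and exported through monocarboxylate transporters, or enters mitochondria, where the PDH complex turns it into acetyl-CoA unless PDH kinases have switched the complex off. Tumor cells, those of aggressive breast cancers included, often take up much glucose and release lactate even where oxygen is present. Most steps are encoded by several isozyme genes with different regulation.

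MDA-MB-231 is a human triple-negative breast cancer line, labelled as wild type, and was grown in high-glucose DMEM with 10% fetal bovine serum. ADRr cells were made from it by stepwise selection in adriamycin (ADR, doxorubicin) and isolation of single clones by limiting dilution. The column names call the sequenced cells ADR12 without saying what the number marks, and no clone of untreated cells is among the samples. Each group had 3 libraries. The dose of ADR at harvest is not given in the sources used here, and nothing says that the libraries of a group came from separate cultures, so p-values measure the spread between these libraries, which may be technical. The series text mentions time points, which the labels of the 6 libraries do not name.

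Libraries held 15983985 to 18272314 counts, and a gene without counts can still stand at up to 3 counts, 0.164 to 0.188 CPM (library-scaled counts, counting error only). Mitochondrial genes held 4.63 to 5.26% of counts. No library stood apart from its group: the chi-square per degree of freedom was 2.59 to 8.25 between libraries of a group and 119 to 135 between groups. VIM, CD44, EGFR, CAV1 and MSN, which mark this mesenchymal line, lay at 348 to 1509 CPM. ESR1 had at most 1 count and PGR had 0 in every library, while CDH1 (5.91 to 16.2 CPM) and EPCAM (9.51 to 27.6) were low but present. These ranges span both lines, which differed in most of these markers. The log2 fold changes (ADRr over parent) were 1.39 for EGFR, 0.80 for CD44, 1.10 for EPCAM and 0.13 for MSN. They were -1.30 for CAV1, -0.56 for VIM and -1.07 for CDH1. The leukocyte markers PTPRC, CD53, LYZ and TYROBP had 0 to 4 counts, endothelial CDH5 0 to 2 and PECAM1 4 to 13, and adipocyte ADIPOQ 0 and PLIN1 1 to 6.

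Many glycolytic genes carry sequences in their promoters that hypoxia-inducible factors or MYC family factors can bind. The letters ACGTG and GCGTG, the core of the hypoxia response element, and CACGTG, the E-box of MYC and MondoA, were searched on both strands from 250 bases before to 50 bases after each start in RefSeq (GRCh38.p14). A CACGTG match also counts as ACGTG. Promoters were listed for 34 of the 37 genes (66 promoters in all), the exceptions being SLC2A3, PFKFB2 and SLC16A1. ACGTG stood in 34.8% of these promoters and in 21.4% of all 35116 promoters, GCGTG in 43.9 and 36.5%, and CACGTG in 13.6 and 7.26%. ACGTG or GCGTG stood in 62.1% of these promoters and in 48.4% of all promoters. By gene, ACGTG or GCGTG was found for 5 of 5 matched genes called higher in ADRr cells, 16 of 19 called lower and 9 of 10 not called, so both directions of change included promoters with these letters. A gene counted here if any of its listed promoters matched. The share by gene over all genes was not computed, so these counts cannot be set against the percentages per promoter. Examples with their RNA going either way are shown, HK2 and ENO1 (higher in ADRr cells) and PGK1 and LDHA (lower), each 5′ to 3′ on its own strand, with the hypoxia element letters of either strand in capitals. Stretches end where the first exon in GENCODE 29 begins, and a site of 30 bases is given for matches inside annotated exons.
HK2, chr2:74833877-74833980, plus strand: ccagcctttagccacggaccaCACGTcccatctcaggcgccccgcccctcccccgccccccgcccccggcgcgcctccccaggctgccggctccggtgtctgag
HK2, chr2:74834063-74834092, plus strand: agccaatggGCGTGcgCACGTcactgatcc
ENO1, chr1:8878742-8878771, minus strand: cggagctgaggggGCGTGccccggaggcgg
PGK1, chrX:78103998-78104173, plus strand: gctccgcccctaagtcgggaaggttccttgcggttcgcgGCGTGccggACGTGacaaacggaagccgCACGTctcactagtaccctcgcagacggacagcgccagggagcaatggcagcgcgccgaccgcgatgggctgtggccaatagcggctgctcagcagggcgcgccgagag
LDHA, chr11:18394313-18394387, plus strand: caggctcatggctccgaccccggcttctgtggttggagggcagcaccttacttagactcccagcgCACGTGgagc
LDHA, chr11:18394470-18394499, plus strand: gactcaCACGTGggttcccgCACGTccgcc
The 250 bases before the start held 3 such matches in HK2, 2 in ENO1, 3 in PGK1 and 5 in LDHA. In LDHA the letters CACGTG occur in both stretches, each read as a match on either strand. A match is a description of the sequence and not a measured binding site.

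In ADRr cells the RNA of most enzymes that turn triose phosphates into lactate was lower, with PKM and PGAM1 falling most, whereas the hexokinase HK2, the glucose transporter SLC2A3, the lactate transporter SLC16A1 and the enolase ENO1 rose. Of the 37 genes, 7 were called higher (18.9%) and 19 lower (51.4%) in ADRr cells, and 11 were not called. A call required an adjusted p of at most 0.05 from edgeR's quasi-likelihood test and a fold change of at least 1.2, a log2 fold change of 0.263. Among all 15242 genes tested, 58.8% were called, 29.2% higher and 29.6% lower. Thus the share called higher was below that of all genes and the share called lower above it. The ADRr libraries all lay above the parent libraries for 10 of the genes (34.5% of all genes tested) and all below for 22 (34.7%), without overlap in either direction for 69.2% of all genes tested, and the groups overlapped for 5 of the 37. The median log2 fold change (ADRr over parent) was -0.28 against -0.0061 for all genes, and the median of its absolute value 0.49 against 0.46. A change of 1 or more on the log2 scale, in either direction, was reached by 10 of the called genes (18.8% of all genes were called at this size). In these bulk samples, fewer cells of a type and less RNA per cell cannot be told apart.

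**Figure D1:**
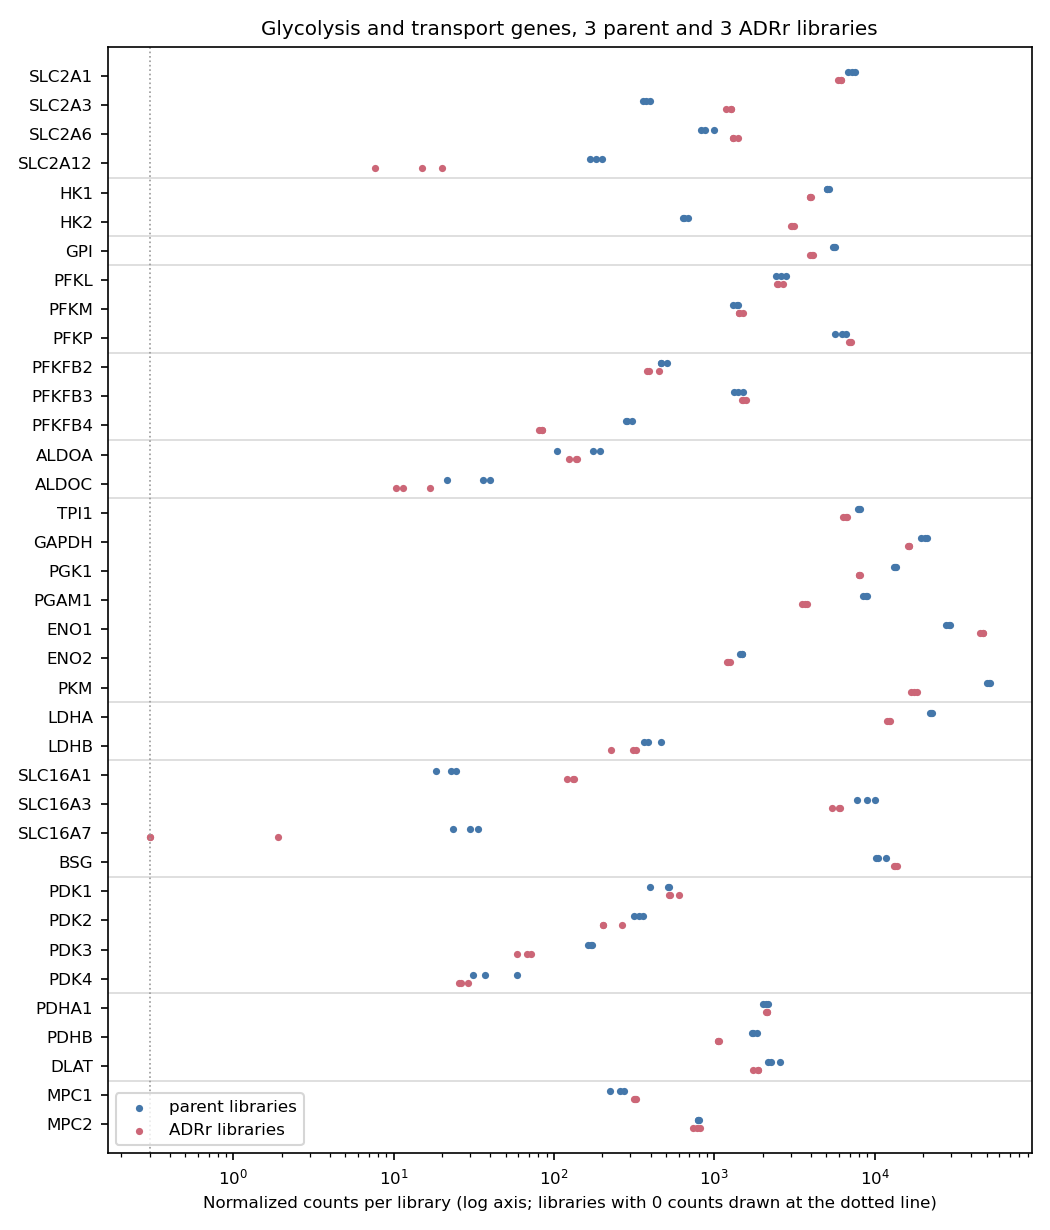
Normalized counts (counts scaled by effective library size to the mean library, log axis) of the 37 genes in each of the 3 parent and 3 ADRr libraries, grouped by role with horizontal lines. Libraries with 0 counts are drawn at the dotted line. PKM lies between 50177 and 52450 in the parent libraries and between 16906 and 18442 in the ADRr libraries, and ENO1 takes the top place in ADRr cells.

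Together the 37 genes held 1.25, 1.22 and 1.27% of the counts of the parent libraries and 1.01, 1.02 and 1.00% of those of the ADRr libraries. The means were 1.25 ± 0.028% and 1.01 ± 0.011% (SD, n = 3 libraries each; exact permutation test, two-sided, p = 0.1, the smallest p that 3 against 3 can give). Levels per gene length (RPKM, TMM-scaled) set the genes in order. In parent cells GAPDH was highest at 401 RPKM, followed by PKM (351), ENO1 (319), LDHA (212) and PGAM1 (199), none of which overlapped with the next over libraries. TPI1 (173) and BSG (166) overlapped, and PGK1 stood at 142. In ADRr cells the order was ENO1 (517), GAPDH (320), BSG (207) and TPI1 (142), without overlap, and then PKM (120) and LDHA (115), which overlapped. PGK1 (85.2), PFKP (84.4) and PGAM1 (83.4) followed and could not be ordered beyond their spread. PKM thus moved from place 2 to place 5 and ENO1 from place 3 to place 1.

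Glucose enters through facilitative transporters of the SLC2A family. The main transporter SLC2A1 (GLUT1) had 7207, 6795 and 7495 normalized counts in parent libraries and 5938, 6145 and 6199 in ADRr libraries. The groups did not overlap, but the log2 fold change of -0.23 (standard error, SE, 0.049, adjusted p = 0.00025) lay below the fold change threshold. SLC2A3 (GLUT3, ENSG00000059804, chromosome 12, 7919230 to 7936275), a high-affinity transporter best known from neurons, had 376, 396 and 357 normalized counts in parent and 1264, 1187 and 1263 in ADRr libraries. It rose 3.29-fold, a log2 fold change of 1.72 (SE 0.074, adjusted p = 4.2e-15). SLC2A6 (GLUT6), an intracellular member of the family, rose from 875, 823 and 994 to 1311, 1415 and 1306 normalized counts, with a log2 fold change of 0.58 (SE 0.072, adjusted p = 2.5e-07). SLC2A12 (GLUT12, ENSG00000146411, chromosome 6, 133988697 to 134052636) went the other way, with 183, 200 and 168 normalized counts in parent and 7.61, 19.9 and 14.9 in ADRr libraries. Its log2 fold change was -3.70 (SE 0.23, adjusted p = 3.1e-12), the largest fall after that of SLC16A7. TBPL1 covers 38.9% of the exonic bases of SLC2A12 on the opposite strand and was itself called lower (-0.69), and whether the counting used strand is not given in the sources used here. Summed over the 4 transporters, the level was 109 ± 5.34 RPKM in parent and 109 ± 2.01 RPKM in ADRr cells (exact permutation p = 1), and SLC2A1 held most of it. SLC2A3 held 3.25, 3.61 and 2.95% of this sum in parent libraries and 11.2, 10.2 and 10.9% in ADRr libraries (means 3.27 and 10.7%, exact permutation p = 0.1). Reads of 4 copies of SLC2A3, SLC2A14 among them, came to at most 4.1% of its counts, and adding them changed no call.

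Hexokinases trap glucose in the cell as glucose phosphate. HK2 (ENSG00000159399, chromosome 2, 74833981 to 74893359), the inducible isozyme that attaches to mitochondria and is raised in many tumors, had 644, 686 and 634 normalized counts in parent and 3149, 3054 and 3002 in ADRr libraries. It rose 4.69-fold (log2 fold change 2.23, SE 0.060, adjusted p = 1.1e-18). HK1, the widely expressed isozyme, fell from a mean of 5101 to 3975 normalized counts, with a log2 fold change of -0.36 (SE 0.048, adjusted p = 6.6e-07). The libraries of each group agreed closely for both isozymes and the groups were far apart. HK2 held 11.7, 12.3 and 11.2% of the summed HK1 and HK2 level in parent libraries and 45.2, 44.4 and 43.9% in ADRr libraries (exact permutation p = 0.1). The sum itself went from 53.6 ± 0.739 to 66.4 ± 0.647 RPKM (log2 difference 0.31, exact permutation p = 0.1). HKDC1, a further hexokinase gene next to HK1 on chromosome 10, had 826, 746 and 801 normalized counts in parent and 6086, 6307 and 6093 in ADRr libraries, a log2 fold change of 2.96 (SE 0.058, adjusted p = 6.0e-21). With HKDC1 counted in, a step added after its values were seen, the summed level was 64.5 and 151 RPKM, of which HKDC1 held 16.8 and 56.0%, HK2 9.78 and 19.6% and HK1 73.4 and 24.4% in parent and ADRr cells.

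GPI, which converts glucose phosphate to fructose phosphate, fell by 0.46 on the log2 scale (SE 0.048, adjusted p = 1.3e-08), from a mean of 5591 to 4054 normalized counts. Phosphofructokinase, the committed step, showed no call in any of its 3 isozymes. The log2 fold changes were -0.04 for PFKL (95% confidence interval -0.16 to 0.09), 0.09 for PFKM (-0.03 to 0.22) and 0.17 for PFKP (0.06 to 0.29). PFKP passed the adjusted p (0.0062) but not the fold change threshold. The isozyme mix was close in both lines, with PFKP at 72.7% of the sum in parent and 74.9% in ADRr cells (exact permutation p = 0.1). The PFKFB enzymes make and break the sugar phosphate that activates phosphofructokinase. PFKFB4 (ENSG00000114268, chromosome 3, 48517684 to 48562015) had 305, 286 and 280 normalized counts in parent and 80.9, 83.7 and 84.1 in ADRr libraries. It fell by 1.80 on the log2 scale (SE 0.12, adjusted p = 1.6e-11). PFKFB2 (-0.23, adjusted p = 0.029) and PFKFB3 (0.11, adjusted p = 0.13) were not called. PFKFB3 thus held 70.9% of the PFKFB sum in parent and 82.3% in ADRr cells, and PFKFB4 14.6 and 4.48% (exact permutation p = 0.1 each).

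Aldolase splits the hexose into triose phosphates. ALDOA, usually the main isozyme, was measured at only 195, 105 and 176 normalized counts in parent and 125, 137 and 139 in ADRr libraries. The groups overlapped and the log2 fold change of -0.25 (SE 0.17, adjusted p = 0.20) was not called. Other annotated genes cover 53.5% of the exonic bases of ALDOA, and AC093512.2 covers 42.3% on the same strand, so that its counts are uncertain in both lines. ALDOC had 21.6, 40.0 and 36.0 normalized counts in parent and 11.4, 16.7 and 10.3 in ADRr libraries, a log2 fold change of -1.35 (SE 0.37, adjusted p = 0.0026). Its parent libraries all lay above the ADRr libraries but were widely spread. Its share of the aldolase sum (22.7 and 11.3%, exact permutation p = 0.2) overlapped between groups and rests on the uncertain counts of ALDOA.

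The steps from triose phosphate to pyruvate yield the ATP of glycolysis, and all 7 of their genes were called, 6 lower and 1 higher. TPI1 and GAPDH had small falls, with log2 fold changes of -0.28 (SE 0.047, adjusted p = 1.4e-05) and -0.33 (SE 0.044, adjusted p = 9.0e-07). PGK1, which makes the first ATP of the pathway, fell from 13417, 13643 and 13125 to 8039, 8141 and 7954 normalized counts, with a log2 fold change of -0.74 (SE 0.045, adjusted p = 1.6e-12). PGAM1 (ENSG00000171314, chromosome 10, 97426160 to 97433441), the phosphoglycerate mutase, fell further, from 8789, 8510 and 8987 to 3802, 3687 and 3512 normalized counts. Its log2 fold change was -1.26 (SE 0.050, adjusted p = 7.8e-16). ENO1 (ENSG00000074800, chromosome 1, 8861000 to 8879250), the enolase of the next step, ran against its neighbours in the pathway, with 28921, 27880 and 29659 normalized counts in parent and 47442, 47214 and 45395 in ADRr libraries. It rose 1.62-fold (log2 fold change 0.70, SE 0.042, adjusted p = 1.7e-12). ENO2, the neuronal enolase, changed by -0.27 (SE 0.059, adjusted p = 0.00032), close to the threshold, and its share of the enolase sum went from 5.96 to 3.14% (exact permutation p = 0.1).

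PKM (ENSG00000067225, chromosome 15, 72199029 to 72231822), the pyruvate kinase gene whose splice forms are not separated by gene counts, showed the largest fall of an abundant enzyme. It had 51758, 50177 and 52450 normalized counts in parent and 16906, 17613 and 18442 in ADRr libraries. The ADRr level was 0.343 of that in parent cells, a log2 fold change of -1.54 (SE 0.045, adjusted p = 3.2e-18). LDHA (ENSG00000134333, chromosome 11, 18394388 to 18408425), the isozyme that favours lactate formation, had 22593, 22789 and 22268 normalized counts in parent and 12450, 12007 and 12360 in ADRr libraries. It fell by 0.88 on the log2 scale (SE 0.043, adjusted p = 3.5e-14). LDHB fell by 0.49 (SE 0.12, adjusted p = 0.0012) from a mean of 404 to 288 normalized counts. For LDHB, AC010197.2 covers 33.4% of the exonic bases on the same strand and had 0 counts in all libraries. How reads in shared bases were counted is not given in the sources used here, so that the counts of LDHB are uncertain in both lines. The LDHA and LDHB sum went from 220 ± 3.23 to 121 ± 2.23 RPKM (log2 difference -0.86, exact permutation p = 0.1). LDHB held 3.59 and 4.65% of it (exact permutation p = 0.2), a share with the same uncertainty. Reads of processed copies were few, at most 0.461% of the counts of GAPDH, 0.146% of LDHA, 1.22% of PGAM1 and 1.75% of TPI1.

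**Figure D2:**
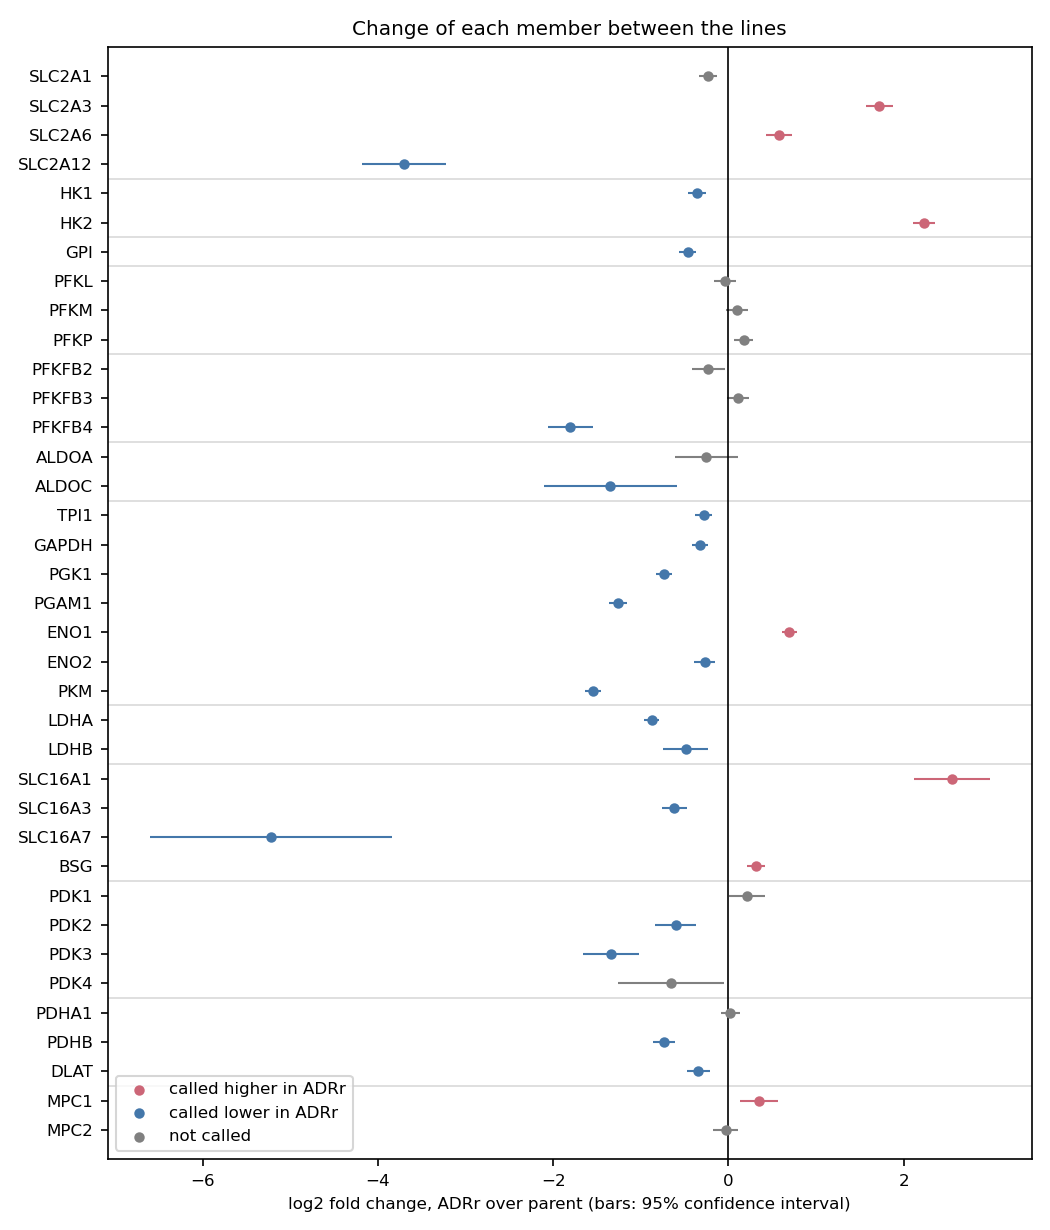
Log2 fold change (ADRr over parent) of each gene with its 95% confidence interval, coloured by call. Falls run from GPI to LDHB except for the phosphofructokinases, PFKFB2, PFKFB3, ALDOA and ENO1. The fitted value of SLC16A7 rests on 2 counts in ADRr cells and depends on the prior count.

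The lactate transporters changed in both directions. SLC16A3 (MCT4), the exporter of glycolytic cells, had 8986, 7769 and 10081 normalized counts in parent and 5970, 6101 and 5426 in ADRr libraries, a log2 fold change of -0.62 (SE 0.069, adjusted p = 4.7e-08). SLC16A1 (MCT1, ENSG00000155380, chromosome 1, 112911847 to 112957013), which carries lactate in either direction, was low in parent libraries (22.6, 18.4 and 24.3 normalized counts) and higher in ADRr libraries (134, 120 and 132). It rose by 2.55 on the log2 scale (SE 0.21, adjusted p = 3.1e-10). SLC16A7 (MCT2), a high-affinity importer, had 29, 31 and 24 counts in parent and 2, 0 and 0 in ADRr libraries, 84 against 2 in all. Scaled to library size the ratio of parent to ADRr was 44.2 (95% exact conditional interval 11.9 to 371, counting error only). BSG (basigin), the chaperone that brings MCT1 and MCT4 to the cell surface, rose by 0.32 (SE 0.051, adjusted p = 1.1e-05). The summed level of the 3 transporters went from 58.4 ± 7.52 to 39.3 ± 2.29 RPKM (log2 difference -0.57, exact permutation p = 0.1). SLC16A3 still held 99.4% of it in parent and 96.4% in ADRr cells, so that SLC16A1 remained a small part. Among genes of the same kind that are not among the 37, EMB (embigin), the chaperone of MCT2, had 112, 130 and 172 counts in parent and 0, 3 and 2 in ADRr libraries (ratio 87.2, interval 37.1 to 270). SLC16A4 (MCT5) rose by 2.18 (SE 0.30, adjusted p = 1.3e-06) from 13.4, 11.9 and 10.7 to 60.0, 47.1 and 57.0 normalized counts.

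At the entry of pyruvate to mitochondria, PDK3 and PDK2 fell and PDHB fell with them. PDH kinases inhibit the PDH complex by phosphorylation. PDK3 (ENSG00000067992, chromosome X, 24465221 to 24541862) had 172, 163 and 170 normalized counts in parent and 72.3, 58.6 and 68.2 in ADRr libraries, a log2 fold change of -1.34 (SE 0.15, adjusted p = 7.6e-08). PDK2 fell from 341, 317 and 359 to 201, 203 and 265 normalized counts, with a log2 fold change of -0.60 (SE 0.11, adjusted p = 7.9e-05). SAMD14 covers 38.6% of the exonic bases of PDK2 on the opposite strand and had 3 to 9 counts per library. Whether the counting used strand is not given, so the level of PDK2 and the kinase sum that includes it carry this limit. PDK1, the kinase best known as a hypoxia target, had a log2 fold change of 0.21 (adjusted p = 0.067) and PDK4 of -0.65 (adjusted p = 0.055), and neither was called. Summed over the kinases the level went from 8.02 ± 0.264 to 5.67 ± 0.347 RPKM, and PDK1 held 25.1, 26.0 and 19.1% of it in parent and 38.4, 42.5 and 33.9% in ADRr libraries (exact permutation p = 0.1 each). Of the complex itself, PDHB (E1 beta) had 1735, 1850 and 1712 normalized counts in parent and 1049, 1057 and 1077 in ADRr libraries, a log2 fold change of -0.73 (SE 0.060, adjusted p = 3.0e-10). DLAT (E2) fell by 0.34 (SE 0.064, adjusted p = 5.8e-05), while PDHA1 (E1 alpha) was at 0.02 (95% confidence interval -0.09 to 0.14). The E1 subunits, which join in the same heterotetramer, thus differed in their change. The mitochondrial pyruvate carrier also showed unequal values for its partners, with MPC1 at 0.35 (SE 0.10, adjusted p = 0.0049, called higher) and MPC2 at -0.03 (95% confidence interval -0.18 to 0.11, not called). DCAF6, which covers 22.5% of the exonic bases of MPC2 on the opposite strand, fell by 0.97.

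**Figure D3:**
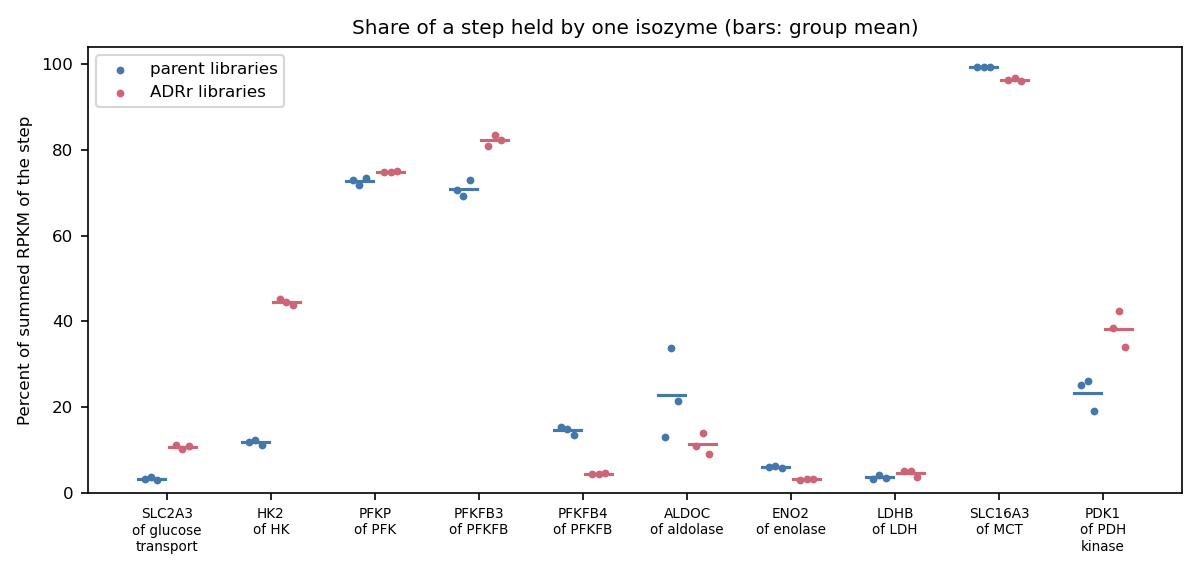
Percent of the summed RPKM of a step held by a named isozyme in each library, with horizontal bars at the group means. HK2 goes from 11.8 to 44.5% of HK1 plus HK2 and PFKP from 72.7 to 74.9% of the phosphofructokinases, while the libraries of the groups overlap for ALDOC and LDHB. The shares of ALDOC and LDHB are uncertain, because other genes cover part of the exons of ALDOA and LDHB.

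The genes were also set beside their neighbours on the chromosome. For each gene the median log2 fold change of up to 25 tested genes on each side was taken as a description, and of 10 or 50 genes on each side as alternatives, which moved 34 of these medians by more than the SE of the gene and 40 by less. For PDHB (-0.73) the neighbours stood at -0.56, and at -0.48 and -0.55 with 10 and 50 genes on each side. For PFKFB4 (-1.80), also on chromosome 3, they stood at -0.63, -0.56 and -0.63 with 25, 10 and 50 genes. HK2 (2.23) had neighbours at 0.48, 0.65 and 0.40 and MPC1 (0.35) at -0.34, -0.33 and -0.31, in the same order of widths. Each of these 4 genes thus had neighbours displaced from 0 at every width, with MPC1 opposite in sign to its own. PFKP (0.17) and PFKL (-0.04), neither of them called, lay among neighbours at 0.47, 0.65 and 0.47 and at 0.53, 0.40 and 0.77. Further genes had medians of 1 sign at every width, among them SLC2A12 (-3.70) at -0.21, -0.72 and -0.21. The medians were -0.19, -0.38 and -0.12 for PGK1 (-0.74) and 0.20, 0.13 and 0.12 for HK1 (-0.36). For DLAT (-0.34) they were -0.23, -0.24 and -0.13, and for SLC2A1 (-0.23) -0.20, -0.16 and -0.13. Some medians depended on the width. Those of ENO1 (0.70) were 0.17, 0.67 and 0.14, those of PKM (-1.54) were -0.38, -0.15 and -0.45, and those of PFKFB3 (0.11) were 0.46, 0.18 and 0.48. LDHA had neighbours at 0.01, 0.13 and 0.0044 and SLC2A3 at -0.04, 0.0051 and -0.21. For SLC16A1, PGAM1 and PDK3 the medians lay between -0.09 and 0.04 at all 3 widths. No DNA copy number was measured, and the part of position in these changes was not tested.

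**Figure D4:**
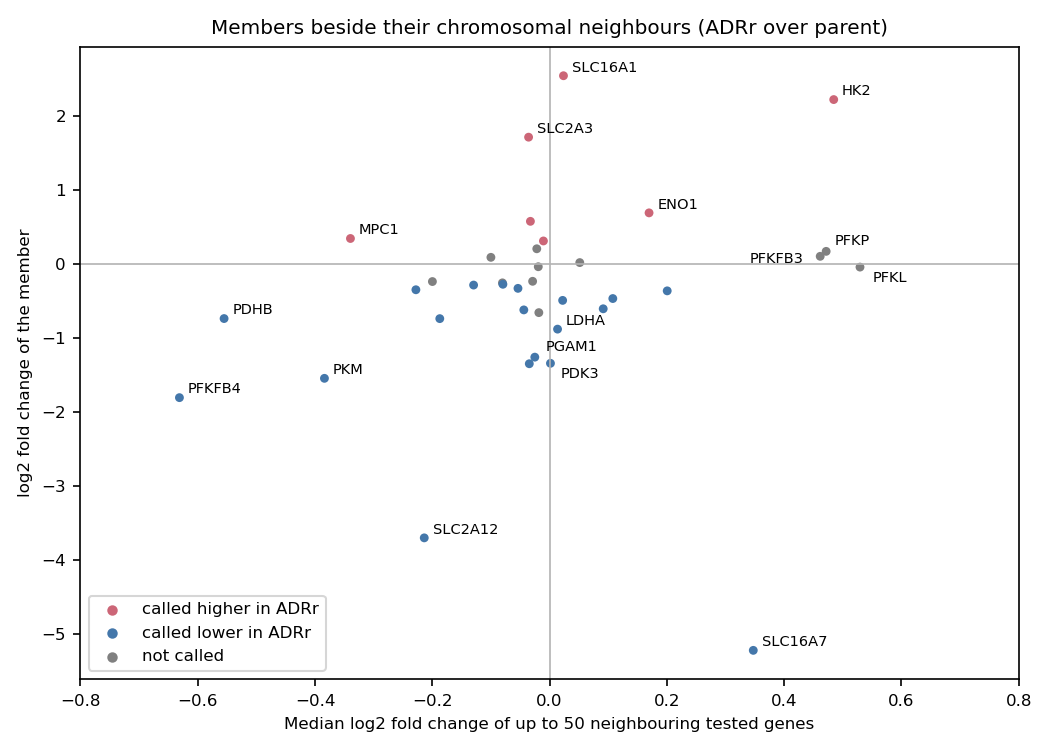
Log2 fold change of each gene (vertical) against the median log2 fold change of up to 50 neighbouring tested genes, 25 on each side (horizontal), coloured by call. At this width HK2 lies to the upper right, PDHB, PFKFB4 and PKM to the lower left, and SLC2A3, SLC16A1, LDHA, PGAM1 and PDK3 near the vertical zero line.

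Genes connected to the pathway were described from lists written with earlier results of these data known. Of 37 other isozymes and PDH regulators, 19 could be tested, with a median log2 fold change of 0.33. Of these, 9 were called higher (47.4%) and 4 lower (21.1%), against 29.2 and 29.6% of all tested genes. Besides HKDC1, SLC16A4 and EMB they included SLC16A8 (MCT3, 1.35, SE 0.38, adjusted p = 0.0036), with 9.74 to 22.6 normalized counts in parent and 22.8 to 59.7 in ADRr libraries. ADPGK, the ADP-dependent glucokinase, fell by 1.23 (SE 0.065, adjusted p = 1.3e-13), and BPGM, which makes bisphosphoglycerate, by 0.92. The PDH phosphatase genes PDP1 (0.53) and PDP2 (0.34), which reverse the action of the kinases, were called higher. PDPR (0.33), which encodes a regulatory subunit of the phosphatase, and PDHX (0.33), of the PDH complex, were also called higher. These 4 genes were named after their values were seen, as was DLD (E3, 0.24, not called).

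In the pentose phosphate pathway, which branches at glucose phosphate and yields NADPH and ribose, 5 of 11 tested genes were called higher and 3 lower (median -0.03). These shares, 45.5 and 27.3%, stood beside 29.2 and 29.6% of all tested genes. PGLS (0.82), RBKS (0.68) and H6PD (0.65) rose, and PRPS1 (-0.84), PRPS2 (-0.79) and TKT (-0.61) fell. In the branches to hexosamine, serine, polyol and glycerol phosphate, 9 of 17 tested genes were called higher and 5 lower (median 0.34). The shares here were 52.9 and 29.4%, against the same 29.2 and 29.6% of all tested genes. GFPT1, the rate-limiting enzyme of hexosamine synthesis, rose from 1893, 1968 and 1806 to 7636, 7401 and 7434 normalized counts (log2 fold change 1.99, SE 0.052, adjusted p = 5.8e-19). OGT, which attaches the product of that branch to proteins, rose by 1.09. In serine synthesis PSAT1 rose by 1.58 while PHGDH, the enzyme before it, fell by 1.00. Their levels were far apart, with PSAT1 at 54.2 RPKM in parent and 162 in ADRr cells and PHGDH at 1.24 and 0.616. AKR1B1, the aldose reductase, and SHMT1 fell by 0.80 and 0.71. SHMT2, the more abundant paralogue of SHMT1, was called higher (1.05, mean 2702 normalized counts in parent and 5611 in ADRr libraries). PSPH, also of serine synthesis, was called higher too (0.73).

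Among 26 regulators of glycolytic transcription, 10 were called higher (38.5%) and 5 lower (19.2%), against 29.2 and 29.6% of all tested genes (median 0.0036). ARRDC4 and TXNIP, arrestin-domain genes that MondoA induces when glucose phosphates are plentiful and whose proteins hold back glucose uptake, rose most. TXNIP had 911, 966 and 937 normalized counts in parent and 15113, 14858 and 14442 in ADRr libraries, a log2 fold change of 3.98 (SE 0.054, adjusted p = 9.7e-24). ARRDC4 had 11.3, 8.65 and 9.74 in parent and 389, 381 and 333 in ADRr libraries (log2 fold change 5.19, SE 0.18, adjusted p = 1.1e-16). EPAS1, which encodes a hypoxia-inducible factor alpha subunit, rose by 1.94. Of the E-box factors and their partners, MYC rose by 0.95 (SE 0.051, adjusted p = 1.6e-13), its partner MAX by 1.06, the MAX-binding repressor MXI1 by 1.61 and MLXIPL (ChREBP) by 1.03, while MLXIP (MondoA) was at -0.04 (95% confidence interval -0.15 to 0.08) and its partner MLX at -0.25, neither called. Of the hypoxia-inducible factor subunits besides EPAS1, HIF1A was at 0.02 (-0.09 to 0.12) and ARNT at -0.18, neither called. These genes other than EPAS1 were named after their values were seen. VHL, part of the ubiquitin ligase that removes HIF proteins, fell by 0.64, and EGLN1, a prolyl hydroxylase that marks them for decay, by 0.51.

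**Figure D5:**
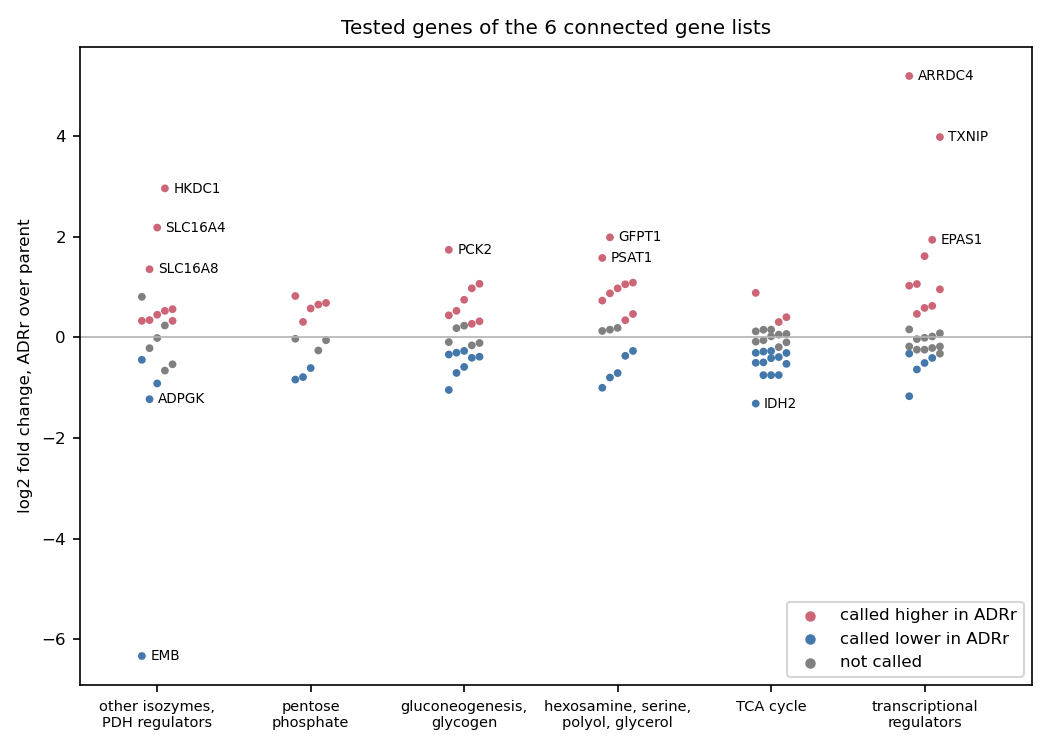
Log2 fold change (ADRr over parent) of every tested gene of the 6 connected lists, coloured by call, with sideways spread for legibility only. TXNIP and ARRDC4 stand highest, EMB (5 counts in ADRr cells) lowest, and most genes of the TCA cycle list lie at or below 0.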

How the data were processed

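According to the study's methods, polyadenylated RNA was made into libraries with the CORALL kit and sequenced on an Illumina NovaSeq, and the submitters' processing notes name fastp, HISAT2 2.0.5, featureCounts 1.5.0-p3, DESeq2 1.20.0 and GRCh38. The sample labels describe another library kit. The authors deposited whole-number counts per gene without normalization, used for all main results, and FPKM values, used only for alternatives. Identifiers and lengths of all 58735 genes were those of GENCODE 29.

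Genes kept by filterByExpr (15242) were TMM-normalized and tested on the counts with edgeR 4.0.16 (R 4.3.3, quasi-likelihood, group only, Benjamini-Hochberg over all tested genes, common biological coefficient of variation 0.0598). The fold threshold is the study's Log2(1.2), read as a fold change of 1.2. RPKM was computed from the counts. Summed levels and shares were compared by the exact two-sided permutation test. The edgeR test was tested on simulated data, counts with known changes. The same-numbered libraries of the groups did not deviate together.

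The alternatives were other scalings and filters, DESeq2 1.42.0, limma 3.58.1 (limma-trend on log2 FPKM), a replicate block, each library left out, other thresholds, and counts of copies added. HKDC1 among the hexokinases was added after seeing the data. Full values are given for called genes that changed by 0.5 or more on the log2 scale and averaged 20 or more normalized counts where they were higher, and for the 3 largest increases and decreases of each connected list. The genes, lists and rules were chosen with earlier results of these data known. A few listed genes are not reported here.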

Additional observations from a re-analysis of the deposited data

How the results depend on the processing

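Over 16 alternative fits, 565 of 584 log2 fold changes of the 37 genes kept their direction and their call (adjusted p and fold change both required), and 25 genes did so in every fit that could test them. Some crossed an adjusted p of 0.05 alone while staying uncalled by fold change, as PFKFB3 did without parent replicate 3 (0.032), PDK1 with library size alone (0.041) and PFKP with limma on unfiltered log2(FPKM + 1) (0.063). Members called numbered 7 to 8 higher and 18 to 22 lower when single libraries were left out, 7 and 17 with library size alone, 7 and 16 with limma on log2(FPKM + 1) and 5 and 15 with glmTreat. Requiring an absolute log2 fold change of 1.2 left 3 higher and 7 lower, 10 and 3 of the 44 and 38 connected genes. It left 1114 of all tested genes called higher and 972 of all tested genes called lower. Of gluconeogenesis and glycogen genes 5 in place of 8 were lower with limma on log2(FPKM + 1) or glmTreat, and of the regulators 8 in place of 5 by the adjusted p alone. Calls of TPI1, ENO2, LDHB and SLC16A7 were lost in 1 or more fits by the fold threshold or, for LDHB, by its adjusted p (0.070 with limma on unfiltered FPKM). Among single libraries, leaving out ADRr replicate 1 ended the calls of TPI1 (-0.25) and ENO2 (-0.26), and leaving out ADRr replicate 3 that of ENO2 (-0.26). Calls were gained by SLC2A1 (-0.28), ALDOA (-0.48) and PDK4 (-0.83) without parent replicate 2, PDK1 (0.28) without parent replicate 1 and PFKFB2 (-0.30) without ADRr replicate 1. With single libraries left out, signs turned for values near 0: PDHA1 ranged from -0.0080 (without parent replicate 2) to 0.040, PFKL from -0.098 to 0.018 (without parent replicate 3), MPC2 from -0.069 to 0.0054 (without ADRr replicate 2), HIF1A from -0.024 (without parent replicate 3; -0.011 without ADRr replicate 3) to 0.044 and the summed glucose transport from -0.034 (without parent replicate 2) to 0.037. The causes were not tested. Without ADRr replicate 2, SLC16A8 was 0.98 (adjusted p = 0.051) and no longer called. The fold changes of low genes shrink with the pseudocount of limma on log2(FPKM + 1), SLC16A1 to 0.95 and SLC2A12 to -1.51.

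The replicate numbers are shared only as numbers: correlations of deviations were -0.0457 to 0.00735 for the same number and -0.0343 to 0.0553 for different ones. A fit with a replicate block called 7 members higher and 19 lower, the same counts as without it.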

Other observations

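The TCA cycle oxidizes the acetyl-CoA that the PDH complex makes. All 26 genes of the list made for it could be tested. The list also holds related enzymes and carriers, such as ACLY, GOT1 and SLC25A1. Of the 26, 13 were called lower and 3 higher in ADRr cells (against 29.6 and 29.2% of all tested genes), with a median log2 fold change of -0.23. IDH2, the mitochondrial NADP-dependent isocitrate dehydrogenase, had 952, 1004 and 1047 normalized counts in parent and 394, 404 and 407 in ADRr libraries (log2 fold change -1.32, standard error 0.075, adjusted p = 5.9e-13). SDHA, the flavoprotein of succinate dehydrogenase, and SUCLG2, the GTP-forming succinyl-CoA ligase subunit, both fell by 0.75. GOT1, the cytosolic aspartate aminotransferase, rose by 0.88, DLST by 0.40 and SUCLG1 by 0.30, which lost its call without parent replicate 3 (0.23).

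Of the gluconeogenesis and glycogen genes, 8 of 21 tested were called higher and 8 lower (38.1% each, median -0.09), against 29.2 and 29.6% of all tested genes. PCK2, the mitochondrial phosphoenolpyruvate carboxykinase, had 644, 604 and 688 normalized counts in parent and 2147, 2222 and 2100 in ADRr libraries (log2 fold change 1.74, standard error 0.065, adjusted p = 2.9e-16), while PC, the pyruvate carboxylase of the step before it, fell by 1.05 (standard error 0.065, adjusted p = 2.3e-12). The glycogen-targeting phosphatase subunits PPP1R3B and PPP1R3C rose by 1.06 and 0.97. SLC37A4, the glucose phosphate carrier of the endoplasmic reticulum, fell by 0.71, and PHKA2, a subunit of phosphorylase kinase, by 0.59.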
